A study of Homo sapiens with 17 samples.

Results

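Among the 19222 genes of the 1 h table, 41 carry a symbol made of ZSCAN, ZKSCAN or ZFP, a number and at most 1 letter. They were taken by symbol alone, without ZFP36, whose product binds mRNA through CCCH fingers. The 41 genes divide into 18 ZSCAN, 7 ZKSCAN and 16 ZFP genes. The data come from HEK-293T, a human embryonic kidney cell line of wild-type genotype, in which newly made RNA was followed by TimeLapse-seq (TL-seq). Cells were given 4-thiouridine (s4U), a uridine analog that enters RNA during the labeling and is recoded so that it reads as C in place of T. The comparison was between 3 libraries of untreated cells and 3 libraries of cells with 1.8 µM emetine, all with 500 µM s4U for 1 h. Emetine is an alkaloid that blocks the movement of ribosomes along mRNA. 1 untreated and 1 emetine-treated library came from cells without s4U. A second experiment of 9 libraries at 2 h, with no emetine, 1.8 µM or 240 µM emetine and 250 µM s4U, enters here only through the mean of normalized counts that its authors list. All groups share 1 cell line, and the labels do not say whether replicates came from separate cultures, so p-values measure the spread between these libraries.

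C2H2 zinc fingers are short modules in which paired cysteines and histidines hold a zinc ion, and arrays of them read DNA sequence. A SCAN domain, which the ZSCAN and ZKSCAN proteins carry, lets such factors pair with each other. The K of ZKSCAN stands for KRAB, a domain that recruits the corepressor TRIM28 and with it enzymes of heterochromatin. ZFP symbols name a looser set, in which some proteins have a KRAB domain and others do not. Messenger RNAs of zinc finger transcription factors are known as short-lived.

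Each of the 41 coding sequences held the C2H2 pattern, cysteine, 2 to 4 residues, cysteine, 12 residues, histidine, 3 to 5 residues, histidine. The number of matches had a median of 8 and ran from 2 in ZSCAN18 to 25 in ZFP62. Cysteine and histidine codons together made up a median of 9.89% of codons, against 4.37% over the genes tested for fraction new. The first match of 4 coding sequences is printed below, read from GENCODE 44 on GRCh38, with the codons of the paired cysteines and histidines in capitals. ZKSCAN4, ZSCAN12 and ZSCAN22 are shown because their fraction new fell most, and ZSCAN30 because it had the longest half-life and its change was within its error. These 4 genes were picked after their values were seen. The ZKSCAN4 finger lies at chr6:28245728-28245790 on the minus strand, that of ZSCAN12 at chr6:28391402-28391464 on the minus strand, that of ZSCAN22 at chr19:58338658-58338720 on the plus strand, and that of ZSCAN30 at chr18:35253966-35254028 on the minus strand, all inside coding exons.
ZKSCAN4: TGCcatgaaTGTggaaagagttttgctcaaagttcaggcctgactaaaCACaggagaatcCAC
ZSCAN12: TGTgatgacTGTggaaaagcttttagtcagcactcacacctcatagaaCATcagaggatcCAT
ZSCAN22: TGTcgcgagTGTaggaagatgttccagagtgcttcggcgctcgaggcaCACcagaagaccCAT
ZSCAN30: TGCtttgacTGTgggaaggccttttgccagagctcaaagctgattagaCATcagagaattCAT
Only matches with 2 residues between the cysteines and 3 between the histidines were kept for printing. The 9 bases between the starts of the cysteine codons and the length of 63 bases were thus set beforehand. Whether the fingers bear on the change in fraction new was not tested.

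Each 1 h library held 22246279 to 40018063 reads assigned to genes, and no molecular identifiers are described, so that intervals cover counting error only. Libraries stood apart in a pair of ways that touch every result below. The third emetine library deviated from its group with an SD of 0.271 on the log2 scale, against 0.114 to 0.168 in the other libraries, and its deviations rose with transcript length (Spearman's rho across genes 0.655), while those of the first and second emetine libraries fell with it (-0.575 and -0.562). The first untreated library had the lowest median fraction new over all genes, 9.26% against 12.3% and 14.7%. It also had the lowest of the untreated values for each of the 26 members tested for fraction new. All 7 HEK-293T markers were detected, at a summed 848.7 to 1079 CPM (read counts scaled to library size), while markers of blood, liver, erythroid, endothelial and muscle cells summed to 0.201 to 0.753 CPM, with PTPRC, CD3E and HBB not listed.

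Levels are given in CPM after TMM scaling, which are shares of a library and cannot tell more RNA of a gene from less RNA of all others. Of the 41 genes, 33 had more than 100 reads over the 6 libraries and were tested, 15 ZSCAN, 6 ZKSCAN and 12 ZFP genes. The other 8 had at most 78 reads in all: ZSCAN5B, ZSCAN10, ZSCAN23, ZKSCAN7, ZFP2, ZFP57, ZFP82 and ZFP92. ZSCAN10 and ZFP57, known from pluripotent cells and from the upkeep of genomic imprints, had 18 and 2 reads. ZFP91, an atypical E3 ubiquitin ligase with zinc fingers, was the most abundant at 77.5 ± 4.10 CPM in untreated cells (SD, n = 3). ZFP64 followed at 47.4 ± 4.72 CPM and ZKSCAN8 at 34.7 ± 2.60 CPM. ZKSCAN1, whose gene is also known as the source of a circular RNA, had 34.3 ± 2.04 CPM, and ZFP62 29.7 ± 1.904 CPM. ZKSCAN8 and ZKSCAN1 did not differ beyond their spread. Per kb of merged exon length, ZFP91 remained first at 13.4 CPM per kb, followed by ZSCAN21 at 9.44 and ZFP62 at 7.08 CPM per kb.

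Emetine for 1 h raised the level of 11 of the 33 tested genes and lowered none (edgeR quasi-likelihood test, Benjamini-Hochberg adjusted p under 0.05 over 13776 genes). Among all genes tested, 2.64% were called higher and 0.0436% lower. The 11 genes were 6 ZSCAN (ZSCAN12, ZSCAN20, ZSCAN21, ZSCAN22, ZSCAN25 and ZSCAN32), 3 ZKSCAN (ZKSCAN2, ZKSCAN4 and ZKSCAN5) and 2 ZFP genes (ZFP1 and ZFP37). The log2 fold change was above 0 in 32 of 33 genes, and in 7443 of 13776 over all genes. Its median was 0.43 against 0.03 over all genes. At an unadjusted p under 0.05, 20 were higher and none was lower, where 14.9% of all genes were higher and 6.95% lower. DESeq2 called 14 members higher and 0 lower, and 5.95% and 1.13% of all genes. The lowest emetine value exceeded the highest untreated value in 22 of the 33, while 19.5% of all tested genes showed this. With 3 libraries against 3, an exact permutation test of a single gene cannot give a p under 0.1.

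ZSCAN12 showed the largest change. Its level was 9.57, 9.51 and 11.9 CPM in the untreated libraries and 21.5, 20.8 and 27.9 CPM in the emetine libraries. The lowest emetine value was thus well above the highest untreated one, and the log2 fold change was 1.18 ± 0.16 (SE; edgeR adjusted p = 0.0099). ZSCAN20 was scarce, at 3.08, 4.33 and 3.49 CPM untreated and 7.77, 8.76 and 7.96 CPM with emetine. Its groups did not overlap, and it rose by 1.16 ± 0.17 on the log2 scale (edgeR adjusted p = 0.0141). ZFP37, also scarce, had 2.30, 1.78 and 2.50 CPM untreated and 4.71, 4.54 and 4.84 CPM with emetine. This rise came to 1.11 ± 0.19 (edgeR adjusted p = 0.0222) and rests on 53 reads in its lowest library.

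ZKSCAN4 had 8.03, 11.0 and 11.3 CPM in untreated cells and 19.04, 18.22 and 17.23 CPM in emetine-treated cells, a log2 fold change of 0.84 ± 0.15 (edgeR adjusted p = 0.0261). ZSCAN25 went from 21.3, 18.2 and 21.2 CPM to 33.8, 31.4 and 41.4 CPM, a change of 0.81 ± 0.13 (edgeR adjusted p = 0.0180). For ZSCAN22 the levels were 9.46, 12.03 and 12.08 CPM without emetine and 17.9, 20.8 and 19.2 CPM with it, a change of 0.79 ± 0.13 (edgeR adjusted p = 0.0227). In all 3 genes the emetine libraries stood apart from the untreated ones. ZSCAN21 had 19.6, 20.8 and 20.2 CPM untreated and 30.5, 35.1 and 30.2 CPM with emetine. Its change was 0.66 ± 0.10 (edgeR adjusted p = 0.0162). Of its merged exon length, 41.1% overlaps ZNF3 on the opposite strand, and the strand setting of the counting is not given in the sources used here.

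The other 4 genes that rose changed by less. ZFP1 had 14.7, 14.9 and 16.5 CPM untreated and 21.0, 23.5 and 27.2 CPM with emetine (log2 fold change 0.64 ± 0.13, edgeR adjusted p = 0.0360). ZKSCAN5 had 27.86, 28.39 and 24.97 CPM against 38.3, 37.2 and 39.9 CPM (0.50 ± 0.10, edgeR adjusted p = 0.0324). ZKSCAN2 had 20.2, 21.1 and 21.8 CPM against 27.7, 28.4 and 32.7 CPM (0.49 ± 0.11, edgeR adjusted p = 0.0473). In each of them the groups were separate. ZSCAN32 had 20.7, 19.2 and 19.6 CPM against 26.0, 27.3 and 28.6 CPM (0.46 ± 0.10, edgeR adjusted p = 0.0467), with 17.4% of its exon length under an antisense gene.

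The 22 tested genes that were not called had log2 fold changes between -0.19 and 0.82. Just outside the threshold were ZKSCAN3, a repressor of autophagy genes, at 0.61 ± 0.14 (edgeR adjusted p = 0.0606) and ZSCAN2 at 0.43 ± 0.10 (edgeR adjusted p = 0.0623), both with separate groups. ZFP69B had the highest value among them, 0.82 ± 0.25, on 33 reads in its lowest library. ZSCAN18, a gene with a single pair of finger matches, was the member below 0, at -0.19 ± 0.18, and was at 0.54 with spike-in scaling. ZSCAN30 had 20.5, 22.1 and 18.1 CPM untreated and 21.8, 20.7 and 21.2 CPM with emetine, and its groups overlapped. Among the abundant genes, ZFP91 had 81.5, 77.7 and 73.3 CPM against 83.7, 79.6 and 99.0 CPM. ZKSCAN8 had 35.6, 36.7 and 31.7 CPM against 42.86, 44.01 and 66.91 CPM, and ZKSCAN1 34.7, 32.1 and 36.1 CPM against 38.4, 36.9 and 55.1 CPM. In these 3 genes the highest value was that of the third emetine library, whose deviations rose with transcript length. Without that library the log2 fold changes of ZFP91, ZKSCAN8 and ZKSCAN1 were 0.08, 0.33 and 0.14, against 0.17, 0.56 and 0.34 with it, and ZKSCAN8 passed the test (edgeR adjusted p = 0.0128).

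The calls depended on single libraries. When any 1 of the 3 untreated libraries was left out, none of the members was called higher by edgeR, and over all genes 5, 5 and 19 were. At an unadjusted p under 0.05 (edgeR), 17, 19 and 17 members were higher in these fits. The share of all genes higher at this cut was 14.9% with no library left out and was not counted for these fits. Without the first or the second emetine library 4 and 5 members were called, and without the third 16 were, with 143, 245 and 1365 of all genes higher in these fits. ZSCAN12 changed by 1.05 to 1.29 over these 6 fits, with adjusted p between 3.6e-05 and 0.089. Scaling to the spike-in reads moved the median log2 fold change of all genes from 0.03 to 0.71 and that of the members from 0.43 to 1.12, and then only ZSCAN12 among them was called. Spike-in reads made up 0.667%, 0.480% and 0.728% of the untreated libraries and 0.304%, 0.666% and 0.408% of the emetine libraries. With this scaling ZSCAN12 changed by 1.895 with an SE of 0.49, against an SE of 0.16 with TMM. Fewer calls thus came with larger changes and wider errors.

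**Figure D1:**
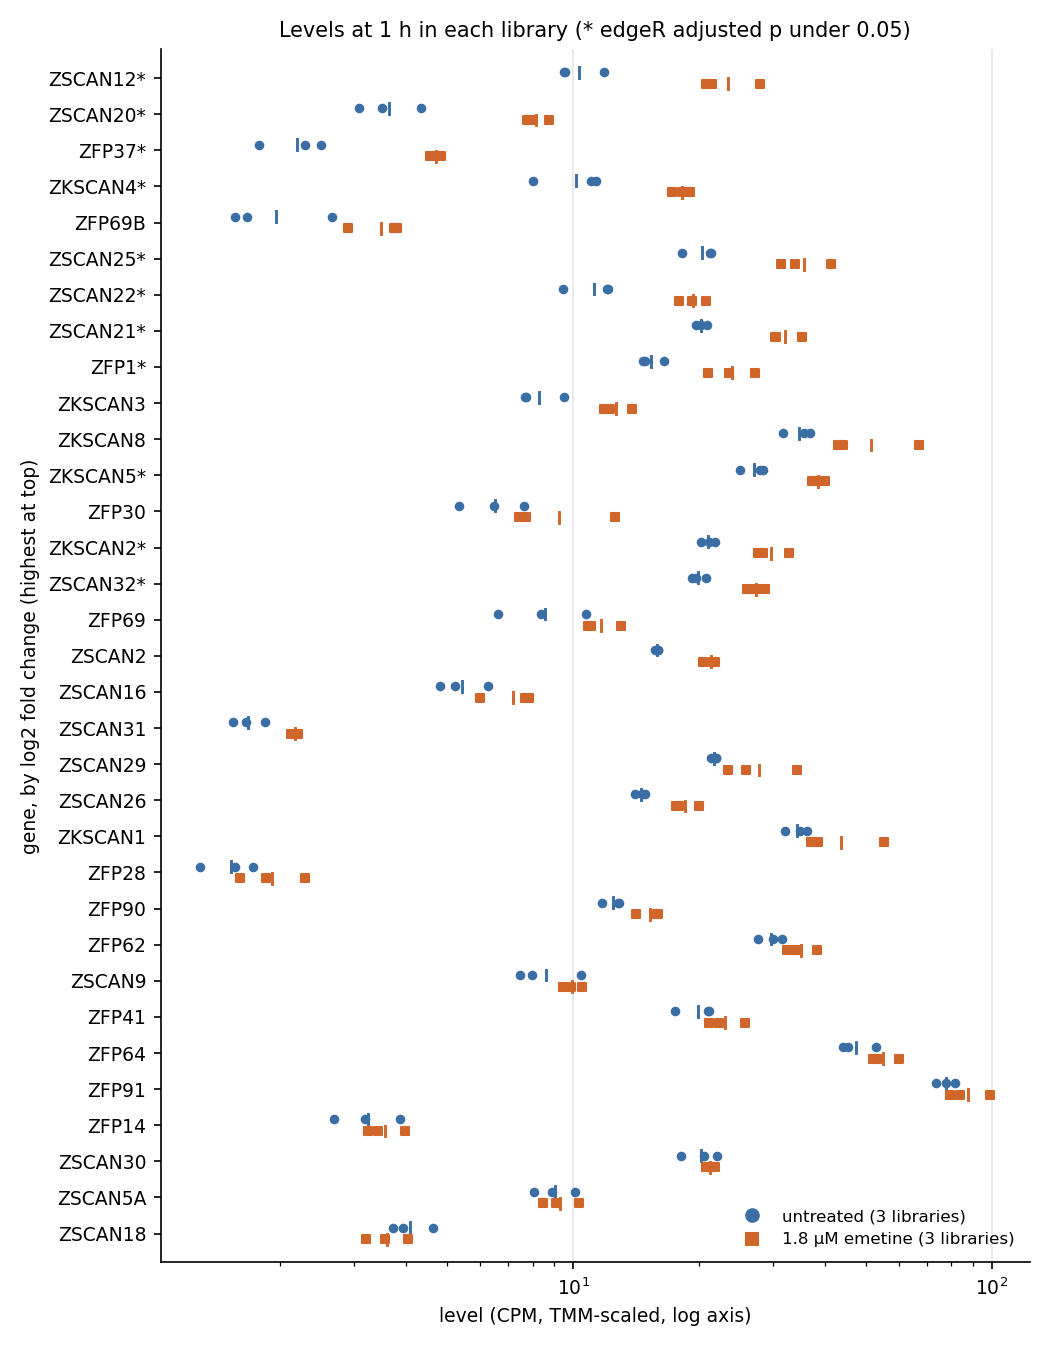
Level in CPM (log axis) of the 33 tested genes in each of the 3 untreated (circles) and 3 emetine-treated (squares) libraries at 1 h, with the group mean as a short line, ordered by log2 fold change. The emetine libraries lie to the right of all untreated libraries in 22 of 33 genes, with ZSCAN12 at the top (1.18) and ZSCAN18 at the bottom (-0.19).

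The libraries without s4U gave a second look at the levels from cells that the test did not use. With 1 library per group there is no test, and each ratio is given with its exact 95% interval for counting error. ZSCAN12 had 260 reads in the untreated library and 707 in the emetine library, 11.0 and 22.1 CPM, a log2 ratio of 1.01 (0.81 to 1.22). ZSCAN20 had 83 and 282 reads and a log2 ratio of 1.34 (0.98 to 1.71). For ZSCAN22 the ratio was 0.76 (0.57 to 0.96), and for ZKSCAN5 0.75 (0.62 to 0.89). All 11 genes that rose with s4U had a ratio above 0 here, between 0.23 in ZFP1 and 1.34 in ZSCAN20, and the interval of 10 of them lay above 0. The exception was ZFP37, with 75 and 130 reads and a ratio of 0.36 (-0.06 to 0.79). Over the 33 tested genes, 32 ratios were above 0, with a median of 0.26 against 0.0025 over all genes. ZFP91 was the gene below 0, at -0.11 (-0.20 to -0.02), whereas its value with s4U was 0.17 ± 0.10. How many of all genes had a ratio or an interval above 0 was not counted, so these counts have no background.

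**Figure D2:**
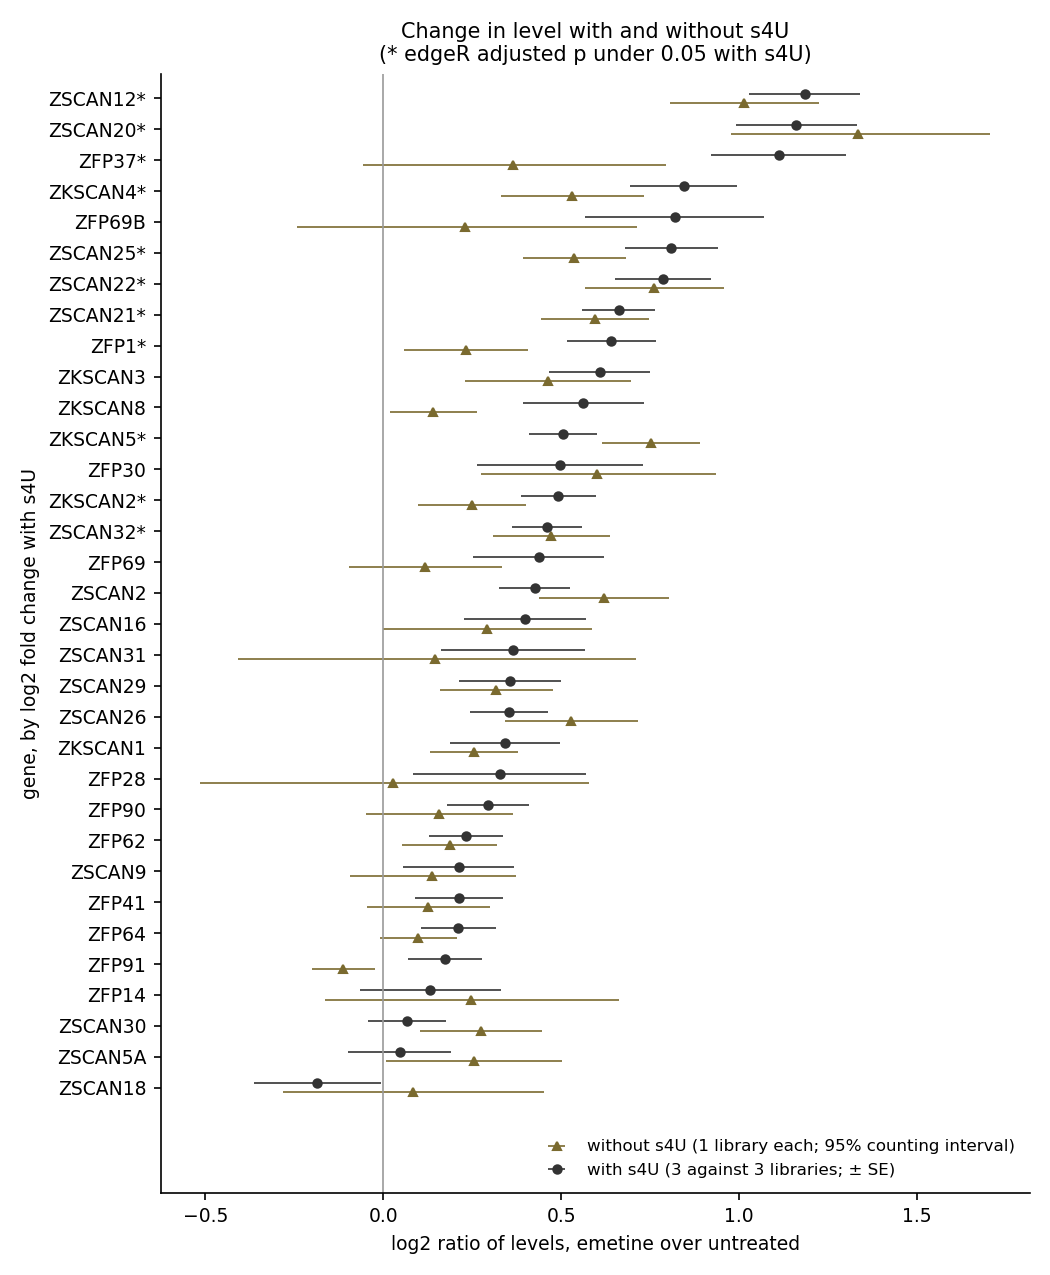
Log2 ratio of levels, emetine over untreated, of 33 genes with s4U (circles, 3 against 3 libraries, bars ± SE) and without s4U (triangles, 1 against 1 library, bars 95% counting interval). Ratios without s4U are above 0 in 32 of 33 genes, and ZSCAN20 (1.34) and ZSCAN12 (1.01) lead in them as well.

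The fraction new is the share of a gene's reads that were made during the hour, estimated from the T-to-C conversions in each read. In untreated cells, reads with at least 2 conversions were 23.7%, 32.5% and 33.2% of the members' reads, against 6.32%, 8.31% and 8.66% over all genes. In emetine-treated cells they were 18.5%, 21.2% and 18.6% of the members' reads, below each untreated library, whereas over all genes they were 6.86%, 7.61% and 7.42%, within the untreated range. Without s4U such reads were 0.050% and 0.047% of the members' reads. This count needs no model and shows the labeling directly.

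Of the members, 26 had at least 100 reads in each of the 6 libraries and were tested for fraction new, 12 ZSCAN, 6 ZKSCAN and 8 ZFP genes. The fraction new fell in 13 of them and rose in none (limma on the logit, adjusted p under 0.05 over 10763 genes). Over all genes tested, 4.83% were called lower and 0.214% higher. All 26 estimates were below 0, as were 8132 of the 10763 over all genes. The median change in the logit was -0.70 against -0.16 over all genes. The median fraction new of these genes was 39.3% without and 25.7% with emetine, while over all genes it was 12.2% and 10.7%. The highest emetine value was below the lowest untreated value in 19 of 26, against 16.8% of all tested genes. By family, 7 of 12 ZSCAN, 3 of 6 ZKSCAN and 3 of 8 ZFP genes fell, and whether families differ was not tested.

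ZKSCAN4 changed most. Its fraction new was 65.1%, 80.4% and 86.0% in the untreated libraries and 37.2%, 40.6% and 32.2% in the emetine libraries. Most of its RNA was thus new in untreated cells and a minority after emetine, a change in the logit of -1.84 ± 0.26 (SE; limma adjusted p = 1.3e-06). In the 3 untreated libraries 122 of 224, 268 of 385 and 158 of 240 ZKSCAN4 reads had at least 2 conversions, and in the emetine libraries 200 of 667, 260 of 730 and 106 of 459 did. Without s4U, 0 of 310 and 0 of 603 did. ZSCAN12 went from 73.3%, 75.3% and 80.9% new to 50.1%, 53.7% and 51.2% (change -1.12 ± 0.25, limma adjusted p = 0.0024). With emetine it had the highest mean fraction new of the 26 members. For ZSCAN22 the values were 55.2%, 62.4% and 73.5% untreated and 34.3%, 34.6% and 43.8% with emetine (-1.09 ± 0.24, limma adjusted p = 0.0020).

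Among the other ZSCAN genes that fell, ZSCAN9 had 45.7%, 64.5% and 59.1% untreated and 32.0%, 32.2% and 34.4% with emetine. ZSCAN25 had 46.8%, 61.4% and 67.2% against 35.8%, 36.7% and 34.3%. ZSCAN21 had 42.5%, 52.7% and 59.3% against 29.3%, 31.2% and 29.6%. In these 3 genes the emetine libraries lay within a few percentage points of each other, while the first untreated library was lowest of its group. Their changes in the logit were -0.98 ± 0.23, -0.94 ± 0.24 and -0.91 ± 0.23. ZSCAN26 had 38.1%, 48.1% and 52.1% against 25.9%, 27.4% and 25.1%, and ZSCAN29 24.9%, 44.9% and 44.2% against 18.4%, 23.4% and 21.8%. For ZSCAN29 the first untreated library lay just above the highest emetine library, so the separation is narrow.

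In the ZKSCAN and ZFP families, ZKSCAN5 had 34.5%, 47.0% and 51.0% new untreated and 26.2%, 26.2% and 27.6% with emetine. ZKSCAN8 had 33.4%, 42.0% and 43.9% against 20.1%, 24.7% and 23.4%. Their changes were -0.77 ± 0.22 and -0.81 ± 0.22, and in both the groups were separate. ZFP30 had 40.1%, 54.2% and 51.5% against 26.4%, 29.6% and 27.6%. ZFP1 had 39.2%, 49.3% and 51.0% against 24.9%, 25.3% and 29.7%. ZFP64, the most abundant gene of the 13, had 21.2%, 29.4% and 34.8% against 13.8%, 17.0% and 13.3%. Their changes were -0.90 ± 0.22, -0.87 ± 0.22 and -0.83 ± 0.21. Limma adjusted p-values of the 13 genes lay between 1.3e-06 for ZKSCAN4 and 0.0245 for ZKSCAN5.

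The members with the smallest changes were ZFP41 (-0.12 ± 0.21), ZSCAN30 (-0.12 ± 0.21), ZFP90 (-0.20 ± 0.22) and ZFP91 (-0.27 ± 0.21). ZSCAN30 had 9.83%, 11.97% and 16.27% new untreated and 12.4%, 12.2% and 9.18% with emetine. ZFP90, a KRAB protein, had 9.01%, 16.4% and 19.4% against 11.1%, 15.2% and 10.4%, and ZFP91 14.9%, 21.5% and 26.0% against 16.03%, 14.71% and 18.6%. In all of these the groups overlapped. For ZFP41, 33.2% of the exon length is shared with another gene on its strand, and for ZFP91 29.2% is shared with ZFP91-CNTF.

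Which genes passed the test again depended on single libraries. Without the first untreated library, the one lowest in fraction new, 22 of 26 members were called lower, and without the second or the third 3 and 2 were, with 2524, 186 and 94 of all genes lower. Without the first, the second or the third emetine library 1, 3 and 5 members were called, with 167, 194 and 205 of all genes. ZKSCAN4 was called in all 6 of these fits, with changes between -2.17 and -1.57 and limma adjusted p of at most 0.0111. ZSCAN12 was called in 5 of them, the exception being the fit without the first emetine library (limma adjusted p = 0.0570).

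**Figure D3:**
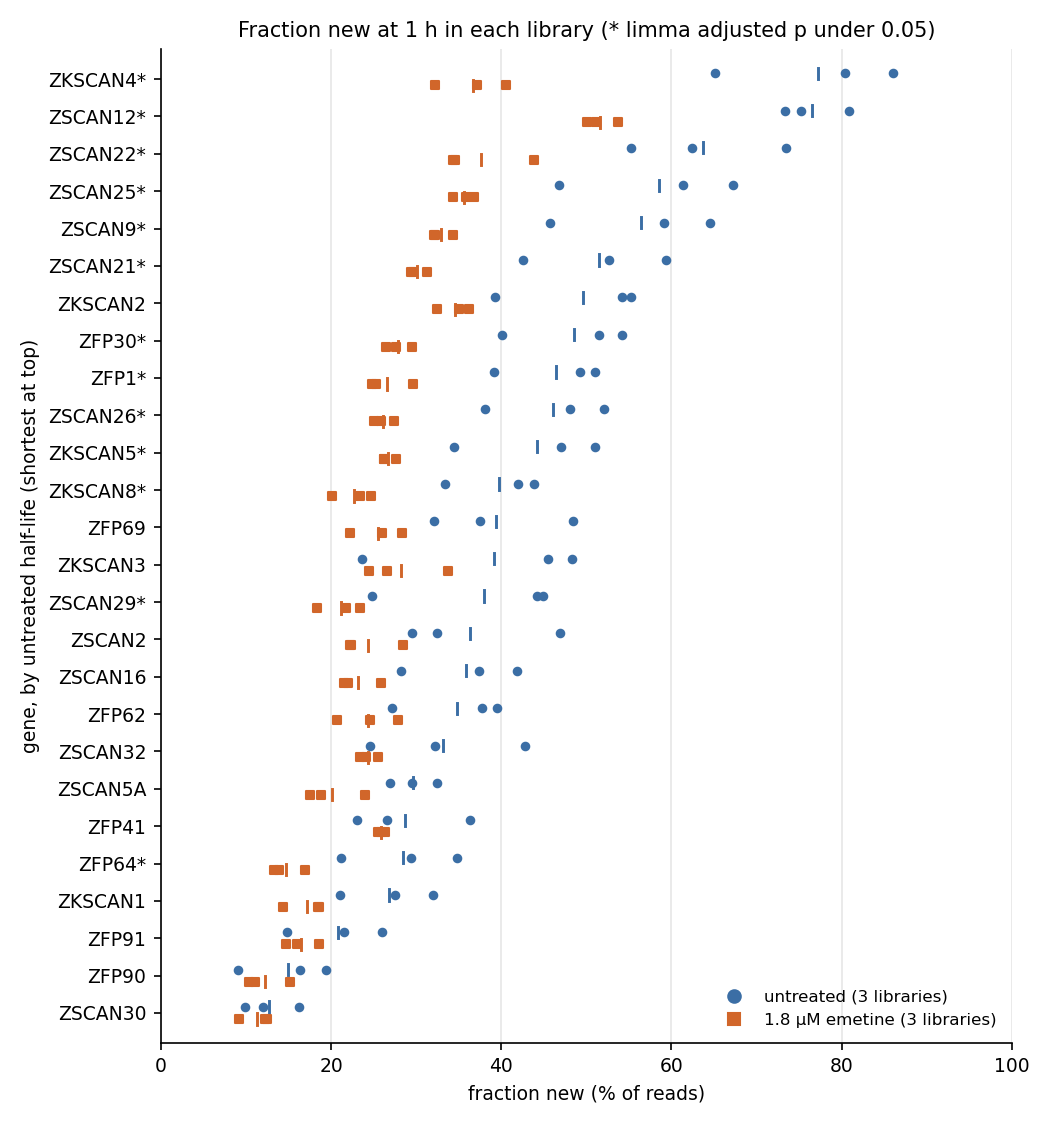
Fraction new (% of reads) of the 26 tested genes in each untreated (circles) and emetine-treated (squares) library at 1 h, with the group mean as a short line, ordered by untreated half-life. The emetine libraries lie to the left of all untreated libraries in 19 of 26 genes, and the groups overlap in ZFP90, ZFP91 and ZSCAN30 at the bottom.

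Of the 11 genes whose level rose, 9 could be tested for fraction new, and 7 of these also had a lower fraction new: ZSCAN12, ZSCAN21, ZSCAN22, ZSCAN25, ZKSCAN4, ZKSCAN5 and ZFP1. Over all genes this held for 147 of 300 (49%). ZKSCAN2 and ZSCAN32 rose in level while their fraction new did not pass the test, with changes of -0.62 ± 0.23 and -0.41 ± 0.22. ZKSCAN2 had 39.3%, 55.3% and 54.2% new against 35.0%, 36.2% and 32.4%, and ZSCAN32 24.5%, 32.2% and 42.7% against 24.1%, 23.4% and 25.5%. ZSCAN20 and ZFP37 had fewer than 100 reads in a library. With the minimum lowered to 50 reads, ZSCAN20 had 43.7%, 68.0% and 69.4% new untreated and 34.7%, 42.5% and 34.3% with emetine (-0.97 ± 0.28, limma adjusted p = 0.0728). ZFP37 had 90.5%, 70.6% and 66.5% against 53.9%, 46.5% and 49.7% (-1.27 ± 0.36, limma adjusted p = 0.0989). The same lower minimum brought in ZSCAN18, whose fraction new was 6.84%, 10.3% and 4.82% untreated and 18.8%, 16.3% and 11.8% with emetine. It moved in the opposite direction to the other members (0.88 ± 0.23, limma adjusted p = 0.0473), on 83 reads in its lowest library, and 25.6% of its exon length lies opposite ZNF135.

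The reads were then split by the fraction new into unlabeled reads, taken to come from RNA that existed before the hour, and labeled reads, taken as made during it. Both are compared on a log2 scale after 0.5 CPM was added, which understates changes of scarce genes. Unlabeled reads were higher with emetine in 15 of 26 members and lower in none (limma adjusted p under 0.05), where 7.37% of all genes were called higher and 0.0929% lower. Their median log2 fold change was 0.74 against 0.04 over all genes. With spike-in scaling 6 members were called higher, without the second or the third untreated library 7 were in either fit, and over all genes these fits called 386, 309 and 266 higher. Labeled reads were called in neither direction (limma), where 0.26% of all genes were higher and 0.65% lower. At an unadjusted p under 0.05, labeled reads of 1 member were higher and of 1 lower, where 1.62% of all genes were higher and 10.8% lower. The median change of labeled reads was -0.15, near the -0.14 over all genes, and ran from -0.69 in ZFP64 to 0.58 in ZSCAN12, with 7 of 26 members above 0. With spike-in scaling the median turned to 0.43, against 0.41 over all genes, and 25 of 26 members were above 0. The spike-in shares differed between libraries of the same group, as given for the levels.

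ZKSCAN4 had 2.80, 2.16 and 1.58 CPM of unlabeled reads in the untreated libraries and 11.96, 10.83 and 11.68 CPM in the emetine libraries. The rise of these older reads came to 2.18 ± 0.19 in log2 units (limma adjusted p = 0.00052). Its labeled reads were 5.23, 8.87 and 9.74 CPM untreated and 7.08, 7.39 and 5.54 CPM with emetine, so that these groups overlapped (-0.20 ± 0.25). ZSCAN12 had 2.55, 2.35 and 2.26 CPM of unlabeled reads against 10.7, 9.61 and 13.6 CPM, a rise of 2.02 ± 0.17 (limma adjusted p = 0.00045). Its labeled reads, 7.02, 7.16 and 9.59 CPM against 10.8, 11.2 and 14.3 CPM, were also higher in every emetine library, by 0.58 ± 0.24, and did not pass the test (limma adjusted p = 0.286). For ZSCAN22, unlabeled reads were 4.24, 4.52 and 3.21 CPM against 11.8, 13.6 and 10.8 CPM (1.49 ± 0.17, limma adjusted p = 0.0017). ZSCAN30 had 18.5, 19.4 and 15.2 CPM of unlabeled reads against 19.1, 18.2 and 19.2 CPM, with overlapping groups (0.09 ± 0.13).

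Set against each gene's own mean untreated level, unlabeled reads in untreated cells made up between 21.5% (ZKSCAN4) and 87.5% (ZSCAN30), with a median of 61.1%. In emetine-treated cells they made up between 77.4% (ZSCAN9) and 114% (ZFP1 and ZKSCAN8), with a median of 102%. In 17 of 26 members the unlabeled reads alone were at or above the untreated level of the whole gene. For ZKSCAN4 the share went from 21.5% ± 6.004 to 113% ± 5.79 (SD, n = 3), for ZSCAN12 from 23.2% ± 1.46 to 110% ± 20.2, and for ZSCAN22 from 35.6% ± 6.19 to 108% ± 12.6. The gene with the longest half-life, ZSCAN30, went from 87.5% ± 11.1 to 93.1% ± 2.86. These shares compare CPM, which are relative to all reads of a library, and they move with the scaling. RNA made before the hour cannot exceed the level at its start. Shares above 100% can thus come from the scaling, the spread between libraries or the split of the reads, which were not told apart. With spike-in scaling the median log2 fold change of unlabeled reads was 1.33 in the members and 0.66 over all genes. How many of all genes reach 100% was not counted.

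**Figure D4:**
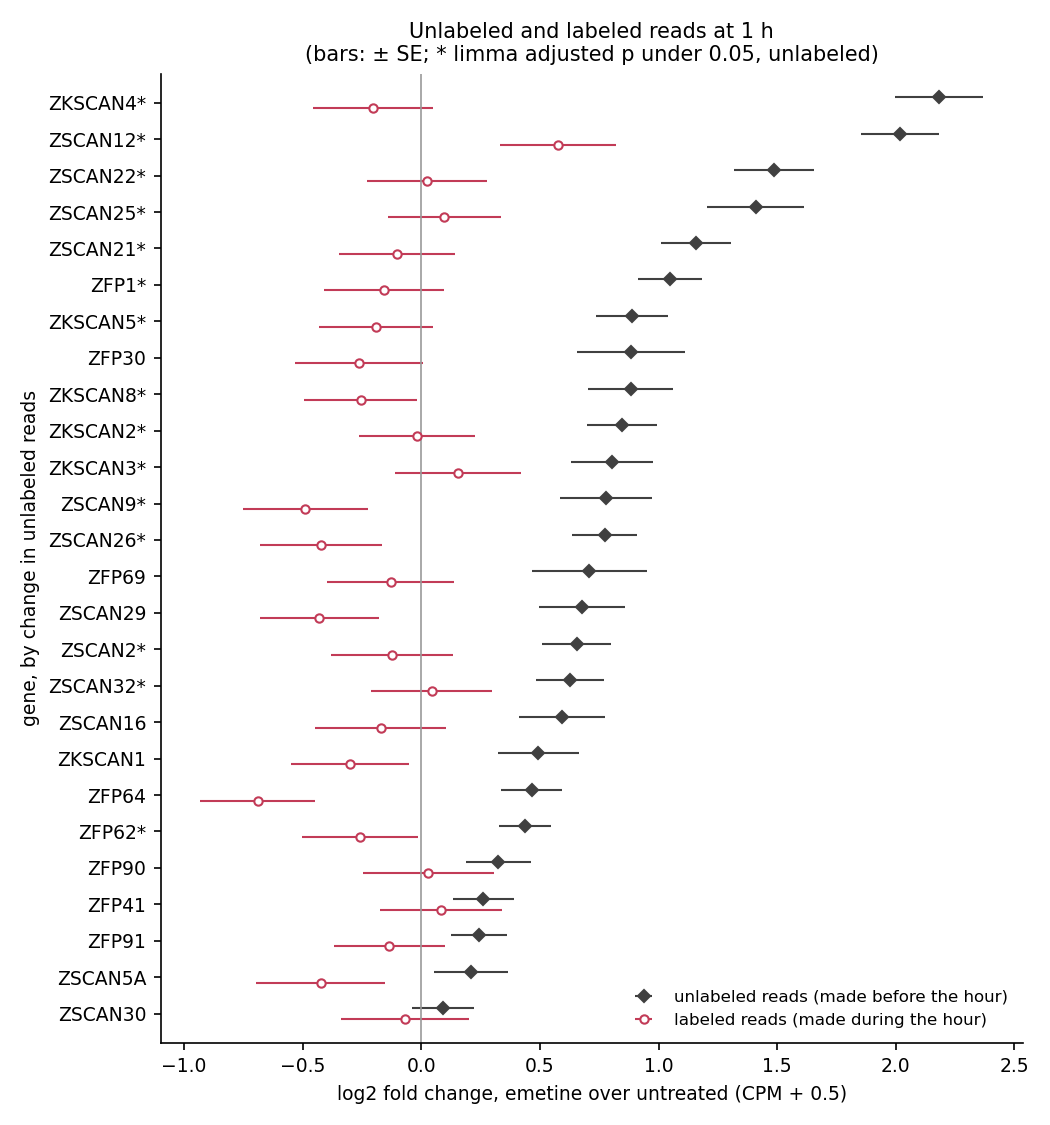
Log2 fold change, emetine over untreated, of unlabeled reads (diamonds) and labeled reads (open circles) of 26 genes, bars ± SE, ordered by the change in unlabeled reads. Unlabeled reads are above 0 in all 26 genes, from 0.09 in ZSCAN30 to 2.18 in ZKSCAN4, while labeled reads lie on both sides of 0 under this TMM scaling and above 0 in 25 of 26 genes under spike-in scaling.

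Half-lives in untreated cells follow from the fraction new if levels are steady and labeling starts with the hour. The median over the 26 members was 90.6 min, against 339 min over all genes tested. ZKSCAN4 (39.5, 25.5 and 21.1 min in the 3 libraries) and ZSCAN12 (31.5, 29.8 and 25.1 min) were shortest and did not differ beyond their spread. ZSCAN22 came next with 51.8, 42.5 and 31.4 min. The longest half-lives were those of ZSCAN30 (402, 326 and 234 min), ZFP90 (441, 232 and 192 min) and ZFP91 (258, 172 and 138 min), whose ranges overlap. By library the median of the members was 113, 67.7 and 69.9 min, so the first untreated library gave longer half-lives than the others. Family medians were 82.2 min for ZSCAN, 78.8 min for ZKSCAN and 115 min for ZFP genes.

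Among the members, a shorter half-life went with a larger change. All 6 genes with a half-life under 60 min had a lower fraction new with emetine, ZKSCAN4, ZSCAN12, ZSCAN22, ZSCAN25, ZSCAN9 and ZSCAN21. Of the 6 genes over 120 min 1 did, ZFP64. Across the 26 genes the untreated half-life and the change in level had a Spearman's rho of -0.805 and a Pearson's r of -0.633. These values are descriptions: genes are not replicates, and the half-life and the change share the untreated libraries. The half-life is computed from the untreated fraction new, from which the change in fraction new is also taken. The counts under 60 min and over 120 min are thus tied in part by construction, and their shares over all genes were not counted. Over all 10763 genes the rho of half-life with the change in level was -0.628. ZSCAN9 departed from this order, with a half-life of 51.6 ± 14.7 min and a change in level of 0.21 ± 0.16, and 7.995, 7.478 and 10.43 CPM untreated against 9.88, 10.5 and 9.46 CPM with emetine. The number of finger matches had a rho of -0.134 with the change in fraction new, a different measure from the change in level used above. Its rho with the change in level was not computed. Members called for fraction new had a median of 8 matches and those not called 6, at similar depth (medians of 3682 and 3885 reads).

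**Figure D5:**
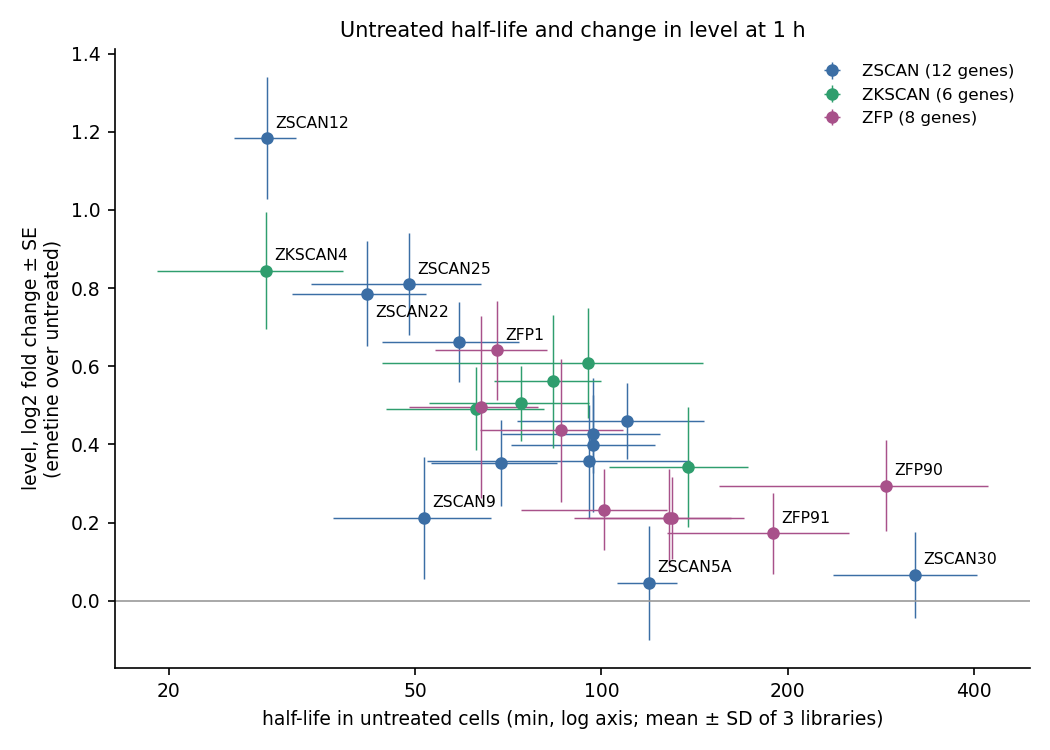
Half-life in untreated cells (min, log axis, mean ± SD of 3 libraries) against the log2 fold change in level (± SE) of 26 genes, colored by family. ZSCAN12 and ZKSCAN4 lie at the short-lived, most changed end and ZSCAN30 (321 min, 0.07) at the other, with ZSCAN9 (51.6 min, 0.21) below the genes of like half-life.

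Some members lie in clusters. 9 of them lie within 336 kb of chromosome 6 (chr6:28107689-28443502): ZSCAN16, ZKSCAN8, ZSCAN9, ZKSCAN4, ZSCAN26, ZSCAN31, ZKSCAN3, ZSCAN12 and ZSCAN23. Of these, 2 of 8 tested rose in level and 5 of 7 tested fell in fraction new. A second group on chromosome 7 (chr7:99504662-100065040) holds ZKSCAN5, ZSCAN25, ZKSCAN1 and ZSCAN21, of which 3 rose in level and the same 3 fell in fraction new. The 8 members on chromosome 19 are spread over chr19:36334453-58342332 and form no such cluster. Of them, 1 of 6 was higher in level (ZSCAN22) and 2 of 3 were lower in fraction new (ZSCAN22 and ZFP30). Over all genes tested, 2.64% were higher in level and 4.83% lower in fraction new. Within the chromosome 6 cluster the log2 fold change in level ran from 0.21 in ZSCAN9 to 1.18 in ZSCAN12, and a difference between neighbours was not tested.

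Few reads of the members crossed a splice junction, 5.57% to 7.67% per library against 42.2% to 50.5% for other genes. The share ran from 0.00654% in ZFP91, 1 of 15295 reads, and 0.893% in ZSCAN22 to 20.1% in ZSCAN16 among the genes tested for level. The long last exon that codes for the finger array in most of these genes is a known feature of the family, and its bearing on these shares was not tested. ZFP91 has 5 finger matches and shares 29.2% of its exon length with ZFP91-CNTF on its strand. The reason for its near lack of junction reads was not tested, and its level and fraction new carry this limit. ZSCAN5A and ZSCAN5B are close copies, and ZKSCAN3 and ZKSCAN4 are related in sequence, so reads could be split between them.

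Related genes were taken from 3 lists. Of 24 SCAN domain genes with another symbol, 3 rose in level and none fell (edgeR): ZNF202 (0.74 ± 0.09), ZNF274 (0.58 ± 0.12) and ZNF394 (0.49 ± 0.09). ZNF394 overlaps ZKSCAN5 on the opposite strand of chromosome 7. In this list 8 of 20 had a lower fraction new, with a median half-life of 108 min. All its genes but PGBD1 and SCAND1 carry a ZNF symbol, so they are counted again in the next list. Among genes with a ZNF symbol, 89 of 423 tested rose (21.0%) and 110 of 283 had a lower fraction new (38.9%), with a median half-life of 87.4 min, near that of the members. Of the 13 genes of the KRAB corepressor, such as TRIM28, SETDB1 and the HP1 genes CBX1, CBX3 and CBX5, none was called for level or fraction new, with 2 higher and none lower in level (edgeR) and none in fraction new (limma) at an unadjusted p under 0.05, the level count being near the 14.9% of all genes. DESeq2 called 0 of them. Their median half-life was 584 min and their median log2 fold change 0.01. TRIM28, the cofactor that KRAB domains bind, had 1301 ± 63.8 CPM untreated and 1117 ± 133 CPM with emetine (-0.22 ± 0.12).

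In the 2 h experiment the tables list 9982 genes, and 26 of the 41 members are among them. These include 10 of the 11 genes whose level rose at 1 h, all but ZFP37, and all 13 whose fraction new fell. The lowest listed mean was 114.3, and all 26 listed members had reads enough for the level test at 1 h. Another 7 members with a tested level are not listed. Being listed thus speaks of abundance and does not show a change at 2 h. The authors' mean of normalized counts over all 2 h libraries was highest for ZFP91 (2906), ZKSCAN1 (2780) and ZKSCAN8 (2041) and lowest for ZSCAN9 (140.5). The median of the 26 members was 477.8, against 844.6 over all listed genes. The means pool untreated and treated cells, so no comparison of doses was made with them.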

How the data were processed

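TL-seq reads of 8 libraries of HEK-293T cells at 1 h were analyzed, 3 untreated and 3 emetine-treated with s4U and 1 of each without it, grouped by the treatment and number in their titles. The table names its libraries by shorter codes than the titles, and these were matched to the 1 h titles because this set alone holds controls without s4U and no high dose. The authors trimmed reads with cutadapt, mapped them to hg38 with hisat-3n and, with bam2bakR, tallied T positions and T-to-C changes per read. The deposited read counts are not normalized. Reads assigned to genes were 81.1% to 82.3% of each library, and the others, including spike-in reads, were left out of library sizes. For the 2 h libraries, the signal values are means of normalized counts that the authors made from htseq-count counts with spike-in factors in DESeq2. The other columns of those tables, their fold changes and p-values, were not used.

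Levels were compared with edgeR 4.0.16 (TMM, quasi-likelihood) under R 4.3.3, over the 13776 genes whose reads in 6 libraries exceeded 100. The study used DESeq2 and bakR; DESeq2 1.42.0 was run as an alternative and bakR was not run. The fraction new is the weight of a 2-component binomial mixture, with the background rate from the library without s4U, estimated with numpy 2.4.6 and pandas 2.3.3 under Python 3.11.15. Its logit, bounded at 0.001 and 0.999, was compared with limma 3.58.1 (trend, robust) for the 10763 genes reaching 100 reads in all 6 libraries, as were labeled and unlabeled reads. P-values were adjusted by Benjamini-Hochberg over all genes tested and are two-sided. Counting intervals of the libraries without s4U were computed with scipy 1.17.1. A half-life is the time in which the unlabeled share would reach 50%, taken from the fraction new after 1 h.

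Members and lists were chosen with earlier results of these data known. Full values are given for genes called for level or fraction new, the 5 most abundant, and the 3 with the shortest and the longest half-lives, and for ZSCAN18, ZSCAN20 and ZFP37 at the lower read minimum. Up to 4 genes of a related list are given with values. Symbols were matched to GENCODE 44 on GRCh38, by symbol or older symbol, for all 41 members. Alternatives were another normalization, count filter, test, read minimum, conversion rate, centering, weighting and pseudocount, a trend on transcript length and GC content (mgcv 1.9.3), the replicate number as a block, and leaving out each library. Figures were drawn with matplotlib 3.10.9.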

Additional observations from a re-analysis of the deposited data

How the results depend on the processing

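Members called higher for level by edgeR numbered 11, and 9 to 14 with RLE size factors, either other count filter, the length and GC trend removed, or DESeq2. Spike-in scaling left 1, with 60 genes higher and 0 lower over all genes, against 363 and 6. The SE of ZSCAN12 was 0.49 in that fit, against 0.16 with TMM. Over all genes, removing the length and GC trend gave 760 higher and 57 lower, and DESeq2 820 and 156. Leaving out 1 library gave 0 to 16 members higher, and over all genes 5 to 1365 higher and 0 to 527 lower. No member was lower under any of these settings.

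Members with a lower fraction new numbered 13, and 11 to 17 with a minimum of 50 reads, a shared conversion rate, median centering or read weights. With a minimum of 500 reads 3 of only 6 testable members were called, and with 50 reads 1 member, ZSCAN18, was higher. Over all genes 520 were lower and 23 higher; the counts were 298 and 14 at 50 reads, 227 and 14 at 500 reads, and 748 and 126 after median centering, which moved the share of lower calls from 95.8% to 85.6%. Leaving out 1 library gave 1 to 22 members lower, and over all genes 94 to 2524 lower and 10 to 41 higher. Members higher for unlabeled reads numbered 15, 6 with spike-in scaling and 7 to 19 without 1 library. Over all genes 7.37%, 3.59% and 2.47% to 13.8% were higher in these fits. Labeled reads had 0 to 3 members lower without 1 library. The 3 were found without the first untreated library, where 1763 of all genes (16.4%) were lower.

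Some estimates within their error changed sign. After median centering the fraction new change was 0.0016 in ZSCAN30 and 0.0028 in ZFP41, and without the third untreated library it was 0.06 in ZFP41. The level change of ZSCAN5A was -0.03 without the second untreated and -0.04 without the second emetine library, and that of ZFP14 was -0.04 with the length and GC trend removed. For ZSCAN30, over the fits without 1 library the level change ran from -0.0048 to 0.14, the fraction new change from -0.26 to 0.032 and the unlabeled change from -0.013 to 0.16. None of these passed a test. The cause of these changes was not tested, beyond fewer libraries or fewer genes in a fit.

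Same-numbered libraries did not deviate together (correlations of 0.089, 0.007 and -0.137 for level and 0.056, 0.0025 and 0.022 for fraction new), and not every library correlated best with its own number. With the replicate number as a block, 3 members were higher for level (75 higher and 3 lower over all genes). For fraction new 13 were lower (647 lower and 40 higher over all genes). For unlabeled reads 8 were higher (358 higher and 8 lower over all genes).

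Median half-life of the members was 72.36 to 95.03 min without 1 untreated library. Genes under 100 reads in a library, 15 of the 41, have no tested fraction new, and the 8 with at most 100 reads in all have no tested level.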
